A study of Mus musculus with 46 samples.

Results

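The urea cycle enzymes Cps1, Otc, Ass1, Asl, Arg1 and Arg2 were followed in the testes of adult male Swiss mice that drank water with or without acrylamide. The members were chosen by gene symbol and read with all 9 of their probes, out of 25697 probes for 16593 named genes on the array. Cps1 heads the set because its 2 probes were the only 2 of 25697 that passed the test for a dose trend at 12 months. Its values are therefore a description and carry no test here, while the other 5 enzymes were taken for their place in the cycle. The mice received 0 (control), 0.001, 0.01, 0.1, 1 or 10 µg/ml of acrylamide for 1, 6 or 12 months, and total RNA of single testes was hybridised to 46 Illumina mouse bead arrays. Each dose and time had 3 arrays, except 2 at 0.1 µg/ml for 1 month. At 12 months there were 2 arrays each for control, 0.001 and 0.01 µg/ml, 3 for 0.1 µg/ml and 1 each for 1 and 10 µg/ml. The labels give ages of 3 to 6 months for the 1-month mice, 11 to 12 months for the 6-month mice and 16 to 17 months for the 12-month mice, so that exposure time and age cannot be told apart. Swiss is an outbred stock by background, every group carries the same strain label, and no genetic change is given.

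The urea cycle turns ammonia into urea and runs in full in the periportal hepatocytes of the liver. Cps1 makes carbamoyl phosphate from ammonia and bicarbonate in the mitochondrion, Otc joins it to ornithine to give citrulline, Ass1 and Asl then convert citrulline to arginine in the cytosol, and arginase (Arg1, or Arg2 in mitochondria) splits arginine into urea and ornithine. Outside the liver most tissues use only stretches of this route: Ass1 and Asl recycle citrulline to arginine for nitric oxide synthesis and in steroid-producing cells, and Arg2 supplies ornithine for polyamines and proline. Acrylamide itself is a reactive amide that is converted to the epoxide glycidamide by the cytochrome CYP2E1.

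Promoters were at hand for 2 of the 6 enzymes, and both are shown because they belong to the members whose probes lie highest (Ass1) and lowest (Otc) among all probes of the array. They are RefSeq sequences of build GRCm38.p6, each 300 bases long and placed around a transcription start. The Ass1 window runs mostly upstream of the gene's first annotated base, while the Otc window is placed further downstream and takes in more of the gene. The capitals mark the motifs found.
Ass1, chr2:31470020-31470319, plus strand: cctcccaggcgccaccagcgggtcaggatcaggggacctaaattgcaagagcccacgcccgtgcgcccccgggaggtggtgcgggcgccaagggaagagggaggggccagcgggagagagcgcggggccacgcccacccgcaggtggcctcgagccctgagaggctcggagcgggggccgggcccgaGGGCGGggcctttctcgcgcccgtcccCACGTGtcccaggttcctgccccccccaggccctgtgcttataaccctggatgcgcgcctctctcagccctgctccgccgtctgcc
Otc, chrX:10252055-10252354, plus strand: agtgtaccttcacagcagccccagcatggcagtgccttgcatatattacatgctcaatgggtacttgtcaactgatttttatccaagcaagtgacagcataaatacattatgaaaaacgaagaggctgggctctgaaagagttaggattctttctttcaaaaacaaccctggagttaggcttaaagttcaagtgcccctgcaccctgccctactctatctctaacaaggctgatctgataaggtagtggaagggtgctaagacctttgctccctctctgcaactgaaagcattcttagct
The Ass1 promoter is 74.0% G and C with 27 CpG pairs, and the Otc promoter is 44.3% with 1, beside medians of 52.7% and 7 over 32851 promoters of the same length. Searched on both strands, the Ass1 window holds 1 GC box (GGGCGG) and 1 E-box (CACGTG) and no TATAAA, and the Otc window holds none of these letters. Of all promoters, 35.7% hold the GC box, 7.15% the E-box and 13.6% TATAAA.

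All levels below are the deposited processed values, which are on a log2 scale. Each array's median over all probes lies at 7.82, and values below 7.76 belong to the dimmest 40% of probes. Both Otc probes and the Arg1 probe are in that dimmest part, so 6 of the 9 probes passed a filter on dim probes. That filter used the mean of each probe over all arrays. The second Cps1 probe passed it with a mean of 7.79. Its means at 1 month (7.75) and 6 months (7.75) lay below 7.76, and only its mean at 12 months (7.93) lay above. It therefore passed through its 12-month arrays. Differences between dim probes are compressed on this scale: between log2 intensities of 7 and 8 a step of 1 in log2 intensity became 0.586. Array 3 of 0.001 µg/ml at 1 month stood apart, correlating with the remaining arrays at 0.844 on average, against 0.974 or more for each of the rest. Sample numbers run by time and then by dose, and the labels give no slide, so the order of the samples and time cannot be told apart. Within each time, sample order follows dose. RNA came from whole testes, in which a change in the share of a cell type and a change of RNA per cell cannot be told apart.

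At 1 and 6 months Cps1 was near the middle of the array on its first probe and lower on its second. Both were higher in some arrays at 12 months. At 1 month its first probe (ILMN_1252849) ranged from 7.71 to 8.03 over 17 arrays with a median of 7.82, and at 6 months from 7.70 to 8.01 over 18 arrays with a median of 7.82. Its second probe (ILMN_2913078) ranged from 7.66 to 8.11 at 1 month and from 7.65 to 7.94 at 6 months. The medians of that probe were 7.74 and 7.73. The value of 8.11 belongs to the array that stood apart. At both times the arrays of every dose overlapped those of their controls on both probes.

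At 12 months the first Cps1 probe read 7.79 and 7.75 in the 2 control arrays. It read 7.85 and 7.76 with 0.001 µg/ml, 7.99 and 7.82 with 0.01 µg/ml, and 8.39, 8.19 and 7.74 with 0.1 µg/ml. The single 1 µg/ml array read 9.44 and the single 10 µg/ml array 8.13. The second probe read 7.69 and 7.72, 7.73 and 7.74, 7.90 and 7.79, 8.11, 7.96 and 7.64, 8.84, and 8.05 in the same order. The same 4 arrays were highest on both probes: the one at 1 µg/ml, 2 of the 3 at 0.1 µg/ml and the one at 10 µg/ml. The third array at 0.1 µg/ml was the lowest of the 11 on both, below the controls, so the 0.1 µg/ml group spans the whole range outside the 1 µg/ml array. In runs of 8 sample numbers, the control and 0.001 µg/ml arrays lie in run 5. The 0.1, 1 and 10 µg/ml arrays lie in run 6, so dose and sample order go together here.

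**Figure D1:**
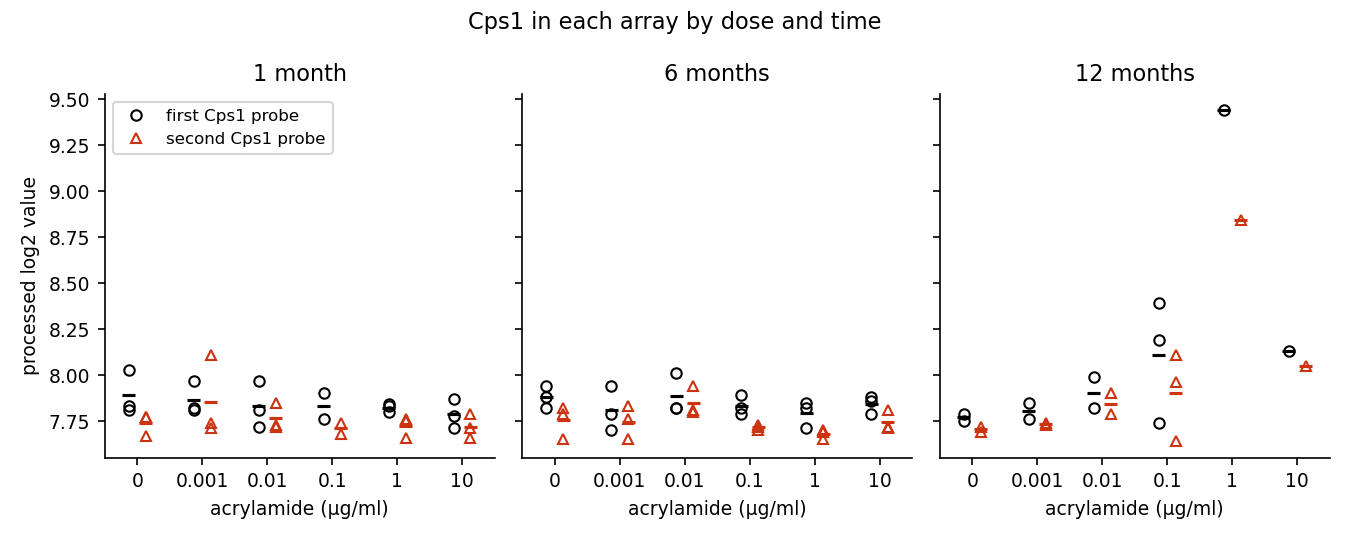
Processed log2 values of both Cps1 probes (circles and triangles) in each of 46 arrays against acrylamide dose, 1 panel for each exposure time, with short lines at the group means. The 1 µg/ml array at 12 months sits at 9.44 and 8.84, above every other array, and the arrays at 1 and 6 months lie between 7.65 and 8.11.

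The slope of Cps1 over the 6 dose steps at 12 months was 0.186 ± 0.0237 (SE) per step for the first probe and 0.133 ± 0.0202 for the second, on the processed log2 scale, where 0.00778% of all probes were called, namely these 2. Without the 1 µg/ml array the slopes were 0.0927 ± 0.0256 and 0.0713 ± 0.0219, and without both single arrays at 1 and 10 µg/ml they were 0.117 ± 0.0346 and 0.0707 ± 0.0296. Each omission made the slope of both probes smaller by more than 1.5 times. Without the 10 µg/ml array alone the slopes were 0.272 ± 0.0292 and 0.179 ± 0.0249. Just outside the threshold in the same trend lay Khk, ketohexokinase of fructose metabolism, at -0.0914 ± 0.0168, and Rabep1, an effector of early endosomes, at 0.0780 ± 0.0146. At 1 month the Cps1 slopes were -0.0181 ± 0.0166 and -0.0146 ± 0.0142, and at 6 months -0.00784 ± 0.0166 and -0.0104 ± 0.0141.

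The intensities before normalization come from the same arrays. For 33 of 45 columns their rows were restored by matching ranks to the processed values. The order of the arrays on this scale is therefore no separate support, and the values only give the size on a linear scale. The first probe's intensity before normalization was 137.1 and 116.3 in the 12-month controls, 303.2, 238.5 and 126.8 with 0.1 µg/ml, 586.6 in the 1 µg/ml array and 227.6 in the 10 µg/ml array, with array medians of 119.2 to 200.3. After quantile normalization of log2 intensities the 1 µg/ml array was 4.85 times the control mean with the first probe and 3.22 times with the second. The higher 2 of the 0.1 µg/ml arrays were at 1.97 and 1.61 times with the first probe, and the third at 0.969 times. Within its array, the first probe lay at the 45.2 and 35.1 percentiles of all probes in the controls and at the 86.1 percentile in the 1 µg/ml array. The second probe lay at the 15.3 and 26.0 percentiles in the controls and at the 80.0 percentile in the 1 µg/ml array. In the third 0.1 µg/ml array it was near the floor, at the 2.56 percentile.

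In the order of the 18 group means, 1 µg/ml for 12 months came first on both probes, followed by 10 µg/ml and 0.1 µg/ml for 12 months. The 12-month controls were the lowest group of 18 on the first probe and the 17th on the second. Of 17 neighbouring pairs in that order, 16 had overlapping values on each probe, and the pair without overlap was the top one, with a difference of 1.31 and 0.795. Below it, neighbouring means differed by at most 0.205 and 0.144, beside a pooled SD within groups of 0.123 and 0.105. Averaged over doses, Cps1 was higher at 12 months than at 1 month by 0.356 ± 0.0490 and 0.262 ± 0.0418, and by 0.104 ± 0.0518 and 0.0906 ± 0.0443 without the 1 µg/ml array. Without both single arrays the differences were 0.0428 ± 0.0547 and 0.0305 ± 0.0468, each smaller than its SE.

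The 2 Cps1 probes rose and fell together across arrays, with a Pearson correlation of 0.933 over 46 arrays and 0.781 over the 45 without the 1 µg/ml array at 12 months. This is a description over arrays that share groups. The 1 µg/ml array exceeded the next highest of 46 by 1.05 on the first probe and 0.734 on the second. Among all probes it was the highest array by as wide a margin as the second probe's for 2 probes, which are these. Other arrays had such margins too: 767 probes of the array that stood apart and 1 probe each of 2 arrays at 12 months led by at least as much as the first Cps1 probe. In each of the remaining arrays no probe did.

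Liver markers were not raised in the 1 µg/ml array at 12 months. Over 11 measured hepatocyte genes the mean level in the 1 µg/ml array was 7.83, within the 7.81 to 7.96 of the other 10 arrays at 12 months, and 0 of the 11 genes was highest there. Alb, serum albumin, read 7.67 there and 7.64 to 7.73 in the others, and 7 of the 11 hepatocyte genes lie among the dimmest 40% of probes. Any array of that time can be expected to stand at an edge in some lists. Lists other than the hepatocyte one did so in the 1 µg/ml array. Its 4 blood genes averaged 8.95 against 8.41 to 8.92. Of these, alpha-globin (Hba-a1) alone lay above the other arrays, at 11.97 against 9.83 to 11.61. Beta-globin Hbb-b2 read 7.80 (7.69 to 7.89 in the others), the erythroid heme enzyme Alas2 8.28 (8.25 to 8.60) and the red cell anion exchanger Slc4a1 7.75 (7.68 to 7.81). Its 8 spermatocyte genes averaged 11.19 against 11.08 to 11.14, its 6 spermatogonial genes 8.33 against 8.20 to 8.31, and its 7 adipose genes 7.95 against 7.97 to 8.06. Of the spermatocyte genes Ccna1 alone was highest there and Sycp3 alone lowest, and 0 of the spermatogonial genes was highest. Of the adipose genes Adipoq alone was lowest, at 9.25 against 9.42 to 9.85, and Plin1 alone highest. At 1 month the means ranged from 8.27 to 9.25 for blood, 8.25 to 8.54 for spermatogonia, 11.03 to 11.25 for spermatocytes and 7.98 to 8.14 for adipose. The Leydig cell mean lay inside its range, though 1 of 9 genes was highest there and 2 lowest. Insl3 read 13.58 against 12.27 to 13.26, and Klk1b21 7.82 against 7.83 to 9.18. The part of these lists in the Cps1 value was not tested. The array as a whole correlated with the other arrays at 0.982.

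**Figure D2:**
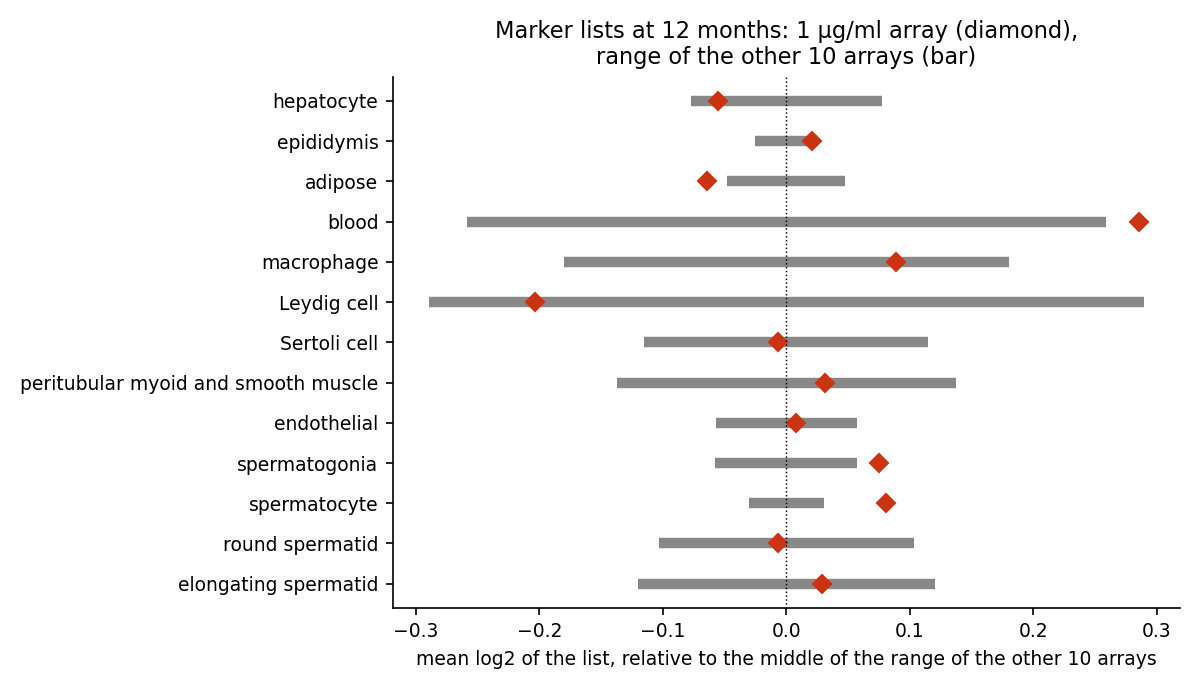
Mean log2 level of 13 cell type marker lists in the 1 µg/ml array at 12 months (diamonds) and the range over the other 10 arrays of that time (bars), each relative to the middle of its bar. The diamond lies above the bar for blood, spermatogonia and spermatocytes, below it for adipose, and inside it for hepatocytes and the other lists.

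The genes whose level was most like that of the first Cps1 probe, among the brighter 60% of probes over 46 arrays, were Ryr3, a calcium release channel (r = 0.688), Bcl2l11, the pro-apoptotic protein Bim (0.612), Suclg2, a subunit of succinyl-CoA ligase (0.565), Smarce1, a chromatin remodelling subunit (0.564), Gstt1, a glutathione transferase (0.558), and Gpx3, secreted glutathione peroxidase (0.555). Ryr3 read 8.26 in the 1 µg/ml array and 7.72 to 7.93 in the other 45. Without that array the correlation of Ryr3 was -0.0598, of Bcl2l11 0.246, of Suclg2 0.421, of Smarce1 0.281, of Gstt1 0.271 and of Gpx3 0.295. Gpx3 read 9.04 there and 7.82 to 8.83 elsewhere, with 8.81 in array 2 of 0.1 µg/ml at 12 months, which was also high for Cps1. Suclg2 was not highest there, with 8.99 against 8.23 to 9.03.
The least alike were Klk1b26, a tissue kallikrein (-0.607), Pknox1, a homeodomain factor (-0.542), and Poli, DNA polymerase iota (-0.506). Without the 1 µg/ml array at 12 months these correlations were -0.239, -0.362 and 0.00316. Klk1b26 read 8.27 in the 1 µg/ml array and 8.58 to 11.42 in the other 45, and Poli read 7.71 against 8.47 to 9.36, so both were lowest there. Over the 18 group means the 6 genes most like Cps1 were Ryr3 (0.919), Gstt1 (0.886), Gpx3 (0.859), Tmprss11a (0.849), Flcn (0.845) and Capn2 (0.844). The highest of these group means for Cps1 is that single array, so the rule picks genes that are high in it. Each of the 6 was higher there than in the other 45, which is therefore no separate result. Over those 45 arrays Tmprss11a, Flcn and Capn2 correlated with Cps1 at 0.148, 0.123 and 0.128.

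Otc, the next enzyme of the cycle, was at the floor of the array. Its first probe ranged from 7.59 to 7.78 and its second from 7.60 to 7.76 over 46 arrays, which places their means at the 4.53 and 5.35 percentiles of all probes. The 2 probes did not follow each other (r = -0.0256 over 46 arrays). In the 1 µg/ml array at 12 months, where Cps1 was highest, they read 7.62 and 7.70.

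Ass1, which condenses citrulline with aspartate, was read by a bright probe, whose mean lies at the 93.6 percentile of all probes, and it ranged from 9.79 to 11.29. At 1 month it read 10.35, 10.84 and 11.01 in controls and 10.12, 10.30 and 10.20 at 10 µg/ml, and these groups did not overlap. At 6 months it read 9.91, 9.79 and 10.97 in controls and 10.75, 10.76 and 10.87 at 10 µg/ml, and these overlapped through the third control. The fitted difference of 10 µg/ml from control was -0.53 ± 0.25 at 1 month (limma, adjusted p = 0.758) and 0.57 ± 0.25 at 6 months (adjusted p = 0.174). Neither passed the threshold of 0.05. Spans of 2 SE run from -1.04 to -0.0196 and from 0.0578 to 1.07. Without the third control at 6 months the difference there was 0.94 ± 0.24 (adjusted p = 0.0223), so that array decides the call. The 10 µg/ml arrays at 6 months and their controls lie in different runs of 8 sample numbers, so dose and sample order cannot be told apart there.

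Testes of 1 group could differ widely in Ass1. At 0.001 µg/ml for 6 months the arrays read 11.03, 9.86 and 10.86, and 3 of the 18 arrays at 6 months lay below 10, while the other 15 lay between 10.13 and 11.29. At 12 months the controls read 11.22 and 10.91, the 0.001 µg/ml arrays 10.74 and 11.02, the 0.01 µg/ml arrays 10.93 and 10.28, the 0.1 µg/ml arrays 10.63, 10.59 and 10.85, and the single arrays of the highest doses 11.21 (1 µg/ml) and 10.74 (10 µg/ml). The highest 2 at that time were a control and the 1 µg/ml array. The dose slope at 12 months was -0.0373 ± 0.0615 (adjusted p = 0.935), and the difference between the slopes at 6 months and 1 month was 0.156 ± 0.0608 (limma, adjusted p = 0.139). Without the third control at 6 months that difference was 0.188 ± 0.0539 and passed (adjusted p = 0.0399).

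Asl, which cleaves argininosuccinate to arginine and fumarate, was measured with 2 probes near the middle of the array. The first (ILMN_1254257) had medians of 7.88 at 1 month, 7.90 at 6 months and 7.99 at 12 months, and the second (ILMN_2670542) 7.88, 7.93 and 8.01. Both were higher at 12 months than at 1 month: by 0.12 ± 0.029 (limma, adjusted p = 0.00246) and by 0.079 ± 0.026 (adjusted p = 0.0218). On the first probe the 12-month arrays spanned 7.86 to 8.17 and the 1-month arrays 7.79 to 8.00, and on the second 7.85 to 8.10 and 7.80 to 7.97, so the times overlapped on both. At 6 months the first probe read 7.88, 8.07 and 8.08 at 10 µg/ml and 7.90, 7.87 and 7.88 in controls, a difference of 0.13 ± 0.059 that did not pass (adjusted p = 0.180). The 2 probes correlated at only 0.311 over 46 arrays.

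Arg1, the arginase of hepatocytes, ranged from 7.65 to 7.89, and its control and 10 µg/ml arrays overlapped at 1 and 6 months. Arg2, the mitochondrial arginase, ranged from 7.66 to 8.21, with medians of 7.91 at 1 month, 7.82 at 6 months and 7.81 at 12 months. It was highest in 2 arrays of 0.001 µg/ml at 1 month, with 8.21 and 8.14 (the latter from the array that stood apart), and in an array of 1 µg/ml at 6 months, with 8.18. At 6 months it read 7.93, 7.87 and 7.93 in controls and 7.78, 7.72 and 7.67 at 10 µg/ml, without overlap, and the difference of -0.19 ± 0.095 did not pass (adjusted p = 0.245).

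**Figure D3:**
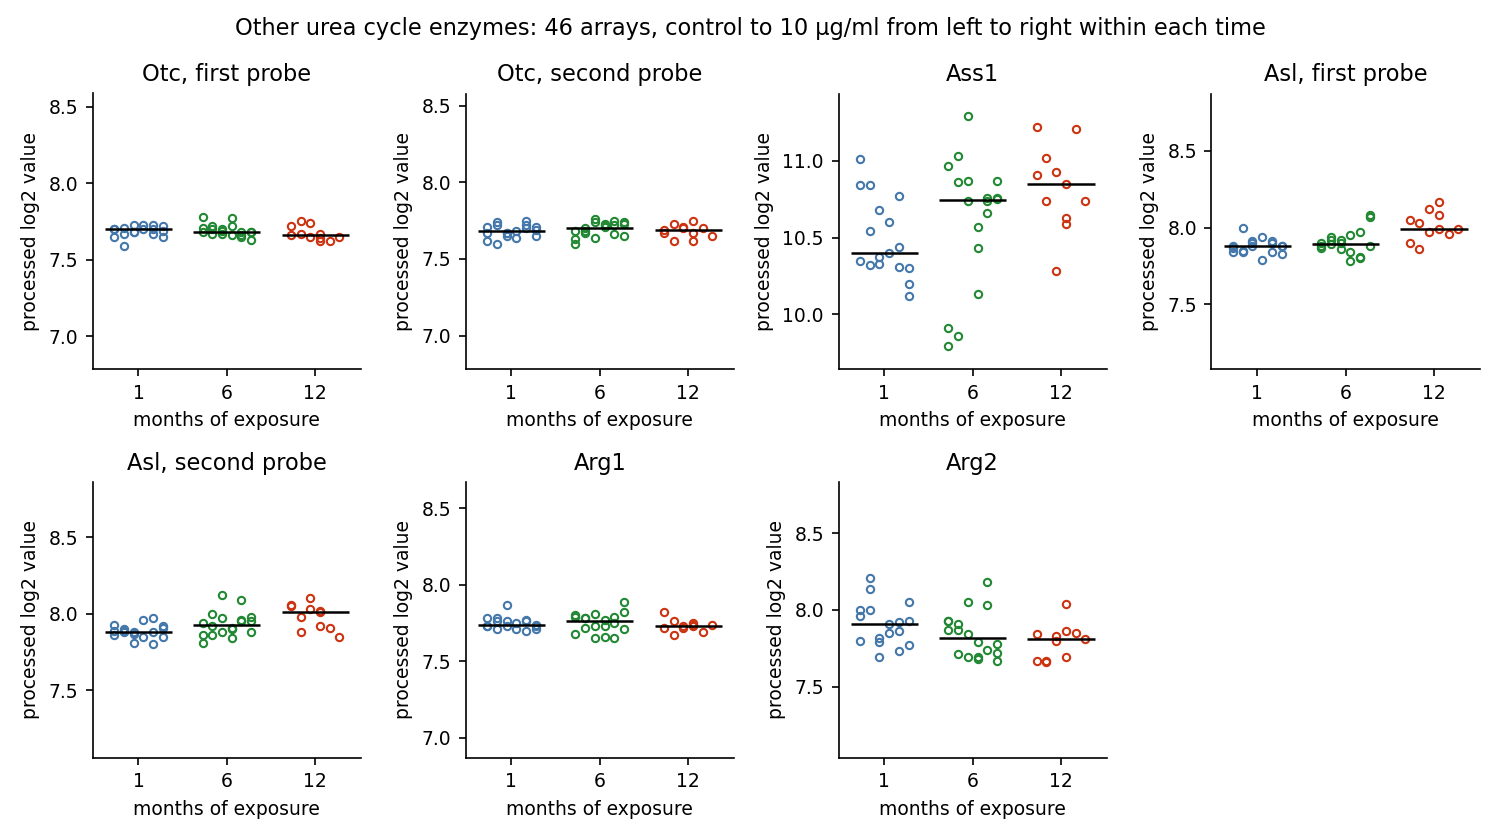
Processed log2 values of the 7 probes of Otc, Ass1, Asl, Arg1 and Arg2 in 46 arrays, by months of exposure, with doses from control to 10 µg/ml from left to right within a time and a black line at the median over doses. Ass1 spreads from 9.79 to 11.29, the Otc and Arg1 probes stay within 7.59 and 7.89, and the Asl medians lie higher at 12 months (7.99 and 8.01) than at 1 month (7.88 and 7.88).

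Across the 7 probes of these 5 enzymes, 0 were called for dose in any comparison. For 10 µg/ml against control, 0% of all probes were called at 1 month, where 1665 had an unadjusted p below the threshold, and 9.23% at 6 months. For the dose slope 2.18% of all probes were called at 1 month, 14.9% at 6 months and, as above, those 2 at 12 months. The smallest unadjusted p of the 7 probes was 0.0465 and 0.0336 for 10 µg/ml at 1 and 6 months, and 0.0724, 0.0593 and 0.0378 for the slopes at 1, 6 and 12 months. The slopes differed between 6 months and 1 month for 5.19% of all probes and between 12 months and 1 month for 1.69%, and for 0 of the 7. The median difference of the 7 probes at 10 µg/ml was -0.00254 at 1 month and 0.0657 at 6 months, beside medians of all probes of -0.000860 and 0.00887.

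With time, 0 of the 7 probes passed at 6 months against 1 month, where 8.96% of all probes did and the smallest unadjusted p of the 7 was 0.0293, and 3 of the 7 passed at 12 months against 1 month, where 25.2% did. The 3 were both Asl probes and Ass1, and all 3 rose, Ass1 by 0.37 ± 0.13 (limma, adjusted p = 0.0310). In the same comparison 4 of 9 Leydig cell genes, 5 of 8 endothelial genes and 6 of 10 macrophage genes rose, with median differences of 0.092, 0.083 and 0.14, and 4 of 7 round spermatid genes fell while 2 rose. Of all 107 measured marker genes 27 rose and 15 fell (39.3%). Their part in the Ass1 and Asl values was not tested. The Ass1 call was lost without any 1 of 7 arrays, 2 at 1 month (the first control and the first at 0.1 µg/ml) and 5 at 12 months (the first control, the second at 0.001 µg/ml, the first at 0.01 µg/ml and the single arrays at 1 and 10 µg/ml), with adjusted p of 0.0502 to 0.106. The call of the second Asl probe was lost without the first array of 0.1 µg/ml at 1 month (adjusted p = 0.0558) or the second of 0.001 µg/ml at 12 months (adjusted p = 0.0508). Arg2 differed by -0.11 ± 0.047 (adjusted p = 0.0797), and passed without any 1 of 4 arrays: array 2 of 10 µg/ml at 1 month (adjusted p = 0.0493), array 1 of 1 µg/ml at 6 months (0.0495), array 2 of 0.1 µg/ml at 12 months (0.0416) or the 1 µg/ml array at 12 months (0.0401). Without the array that stood apart, the first Asl probe, the second and Ass1 differed by 0.13, 0.080 and 0.39, and all 3 still passed. Over the 7 probes the median difference at 12 months was 0.000221, beside 0.00473 for all probes.

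**Figure D4:**
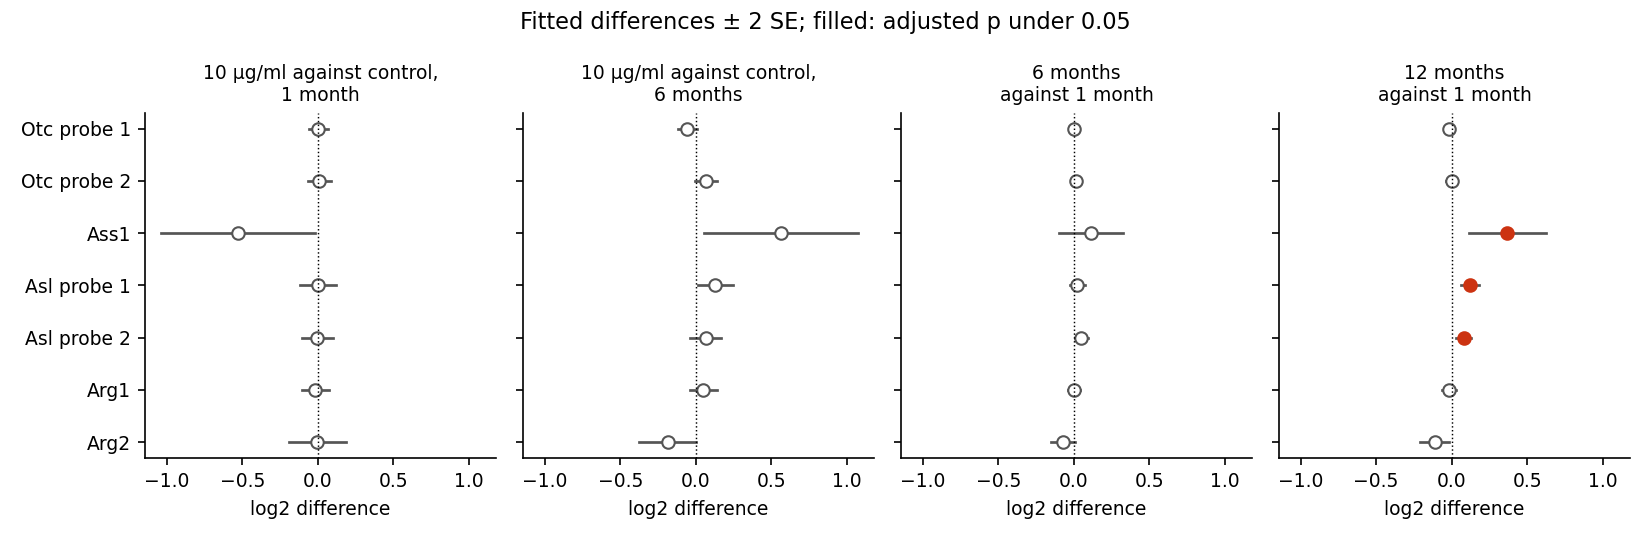
Fitted log2 differences of the 7 probes of Otc, Ass1, Asl, Arg1 and Arg2 with bars of 2 SE, for 10 µg/ml against control at 1 and 6 months and for 6 and 12 months against 1 month averaged over doses; filled points passed the threshold. Only Ass1 (0.37) and the Asl probes (0.12 and 0.079) at 12 months against 1 month are filled.

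Beyond the enzymes themselves, 37 of 46 listed genes that feed the cycle, carry its intermediates or use its arginine and ornithine were measured, each read with its brightest probe. At 6 months, 3 of the 37 were called at 10 µg/ml against control (8.11%, beside 9.23% of all probes). All probes include dim ones, which brightest probes are less often. With the dimmest 40% of probes left out, 2679 of 15418 were called. Ddah1, which breaks down asymmetric dimethylarginine to citrulline, rose by 0.58 ± 0.13 (limma, adjusted p = 0.00664). It read 9.06 to 9.25 in controls and 9.71 to 9.75 at 10 µg/ml. Smox, spermine oxidase, rose by 0.39 ± 0.077 (adjusted p = 0.00232), from 8.11 to 8.17 in controls to 8.50 to 8.58. Oaz3, the antizyme of ornithine decarboxylase made in spermatids, fell by 0.75 ± 0.20 (adjusted p = 0.0154), from 13.75 to 13.80 in controls to 12.89 to 13.17. In all 3 the control and 10 µg/ml arrays did not overlap. These arrays and their controls lie in different runs of 8 sample numbers, so dose and sample order cannot be told apart here either. The Oaz3 call was lost without the first control array (adjusted p = 0.0575) or the third array at 10 µg/ml (adjusted p = 0.0801).

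Some cell type markers moved in the same comparison. Of all 107 measured marker genes 8 rose and 15 fell (21.5%, beside 9.23% of all probes). In the hepatocyte, epididymis, adipose, blood, macrophage, Leydig cell and endothelial lists 0 genes were called. Of 6 spermatogonial genes 1 fell. At 10 µg/ml for 6 months 4 of 7 round spermatid genes and 5 of 9 elongating spermatid genes fell, with median differences of -0.73 and -0.33, while 1 elongating spermatid gene rose. Of 8 spermatocyte genes 4 fell and 1 rose, with a median difference of -0.030. Sertoli cell genes had a median difference of 0.20, and 4 of 13 rose while 1 fell. Of 7 peritubular myoid and smooth muscle genes 2 rose and 0 fell. Their part in the values of Oaz3, Ddah1 and Smox was not tested. Smox has 5 probes: a second rose by 0.21 ± 0.055 (adjusted p = 0.0163), and the remaining 3 lay between -0.00468 and 0.0474.

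In the dose slope at 6 months 6 of the 37 genes were called (16.2%, beside 14.9% of all probes), 4 upward and 2 downward. With the dimmest 40% of probes left out, 4087 of 15418 were called. Sample order follows dose at 6 months, so a slope over dose cannot be told apart from one over sample order. Ddah1 rose by 0.118 ± 0.0226 per dose step (limma, adjusted p = 0.000692), Smox by 0.0671 ± 0.0131, Aldh4a1, an enzyme of proline breakdown, by 0.0961 ± 0.0292, and Slc7a2, a carrier of cationic amino acids, by 0.0358 ± 0.0102. Oaz3 fell by 0.158 ± 0.0331 per step and Mdh1, cytosolic malate dehydrogenase, by 0.0380 ± 0.0113. The other 2 probes of Slc7a2 had slopes of -0.00253 and 0.0118 and the other 2 of Mdh1 0.000616 and -0.00565, which did not pass. A second Smox probe passed, at 0.0376 ± 0.00934 per step. The rest of the Smox probes lay between -0.000336 and 0.00405 and did not pass. The Aldh4a1 call was lost without the first or second control array or the third at 10 µg/ml (adjusted p of 0.0602, 0.0591 and 0.0531). At 1 and 12 months 0 of the 37 were called in the slope, and 0 at 10 µg/ml for 1 month.

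With time, 8 of the 37 genes were called at 6 months against 1 month (6 higher, 2 lower, 21.6% beside 8.96% of all probes). At 12 months against 1 month 13 were called (8 higher, 5 lower, 35.1% beside 25.2% of all probes). With the dimmest 40% of probes left out, 2665 of 15418 were called at 6 months and 6347 at 12 months. The higher shares of these brightest probes are therefore not read as a result about the lists. Aldh4a1 had medians of 9.08, 9.40 and 9.70 at 1, 6 and 12 months and rose by 0.59 ± 0.087 at 12 months (limma, adjusted p = 7.9e-06). Ddah1 had medians of 9.15, 9.44 and 9.61 and rose by 0.41 ± 0.067 (adjusted p = 3.5e-05). Both belong to the list of fates of arginine and ornithine, of which 3 of 11 measured genes rose and 1 fell at 12 months. Oaz3 had medians of 13.80, 13.30 and 13.14 and fell by 0.61 ± 0.098 (adjusted p = 2.9e-05). Round spermatid markers fell in the same comparison for 4 of 7 genes and rose for 2. Elongating spermatid markers fell for 4 of 9 genes and rose for 2, and 6 of 10 macrophage genes rose. The part of these markers was not tested.

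Among the other polyamine genes, Smox rose by 0.22 ± 0.039 and Sat1, which acetylates spermidine and spermine, by 0.30 ± 0.053 at 12 months against 1 month (limma, adjusted p = 7.9e-05 and 0.000106). Slc7a2 rose by 0.18 ± 0.030 (adjusted p = 4.2e-05) and was the 1 of 6 carriers that did (16.7%, beside 25.2% of all probes). Its other 2 probes were at -0.00494 and 0.0448 and did not pass. Of the other 4 Smox probes 1 rose, by 0.15 ± 0.028, and 3 lay between -0.0427 and 0.00107 and did not pass. Nags, which makes the activator of Cps1 and was picked after its values were seen, was at 0.030 ± 0.027 (adjusted p = 0.466). Of the 10 measured genes of nitrogen supply and carbamoyl phosphate, 2 rose and 3 fell at 12 months against 1 month (50%, beside 25.2% of all probes). At 6 months against 1 month Got2, mitochondrial aspartate aminotransferase, rose by 0.32 ± 0.074 (adjusted p = 0.00673), Gamt, which makes creatine, by 0.19 ± 0.051 (adjusted p = 0.0153), and Fh1, fumarate hydratase, fell by 0.18 ± 0.038 (adjusted p = 0.00268). In that comparison Oaz3 fell by 0.31 ± 0.082 (adjusted p = 0.0166), and its call was lost without the first array of 0.1 µg/ml at 1 month (adjusted p = 0.0593).

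**Figure D5:**
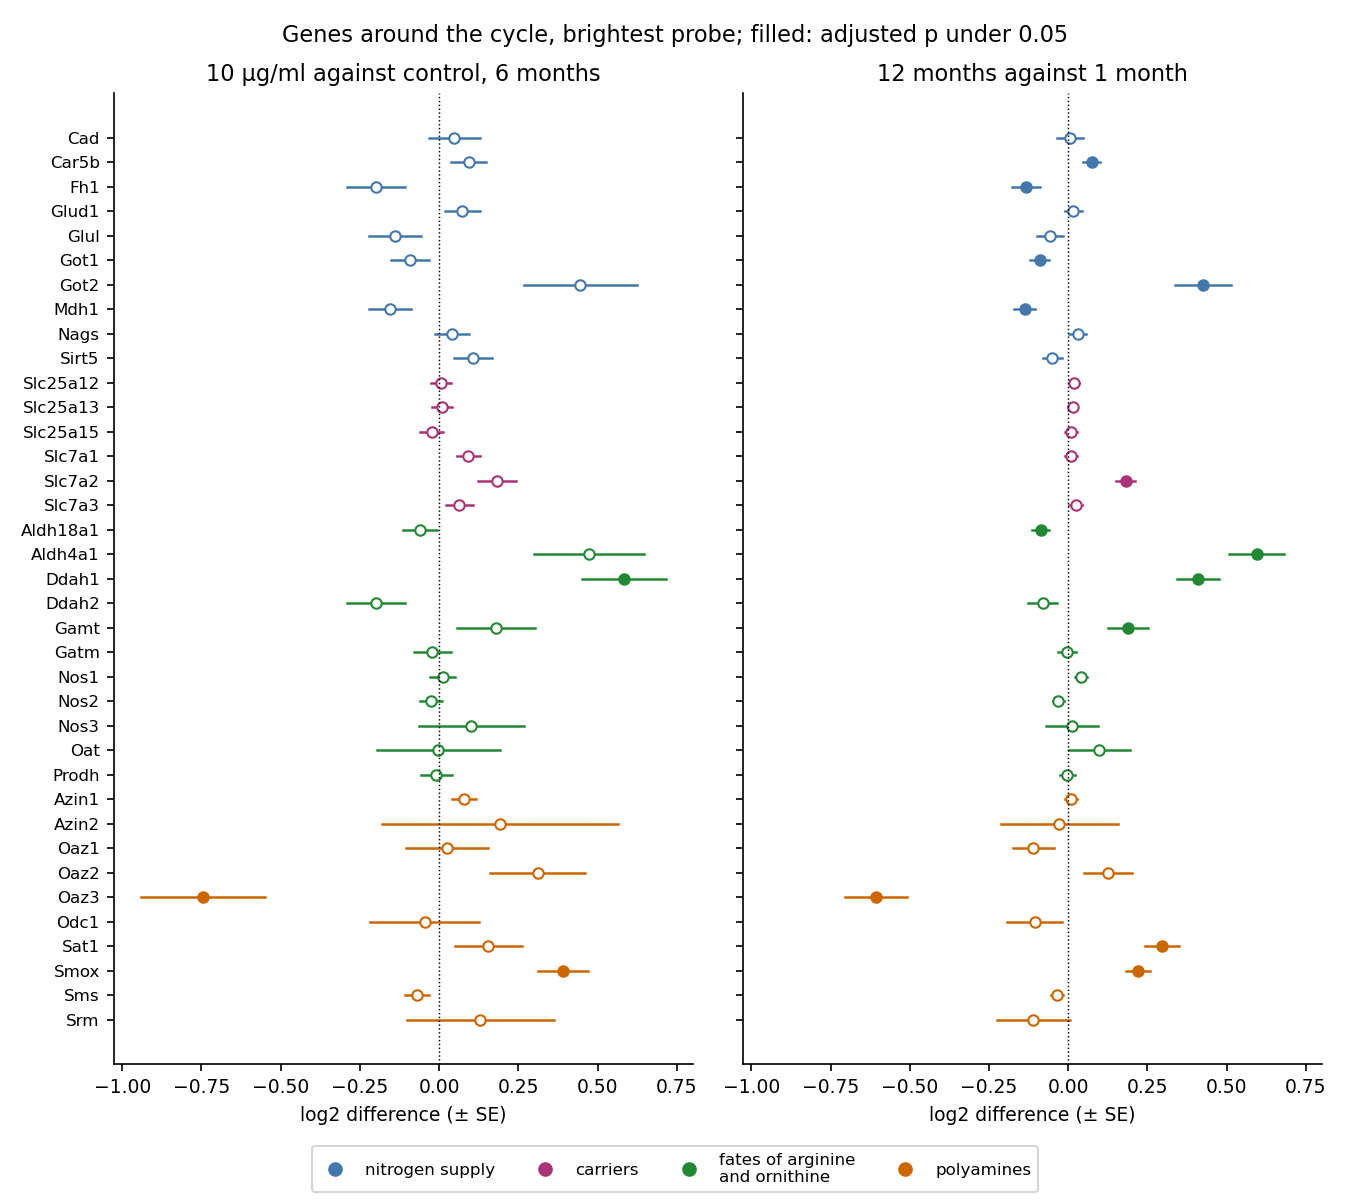
Fitted log2 differences (points, with bars of 1 SE) of the 37 measured genes around the urea cycle, each by its brightest probe and coloured by list, for 10 µg/ml against control at 6 months and for 12 months against 1 month; filled points passed the threshold. Filled in the first panel are Ddah1 (0.58), Smox (0.39) and Oaz3 (-0.75), and in the second 13 genes, with Aldh4a1 at 0.59 and Oaz3 at -0.61 at the ends.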

How the data were processed

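Per the labels, total RNA of single testes was biotin-labelled and hybridised, 1 array per testis. The authors deposited processed values on the log2 scale, made with lumi per the submitters' processing notes (version and settings not given in the sources used here). They also deposited non-normalized bead intensity values, used as an alternative, of which 1 column was not used. Of the other 45, 33 followed another row order. Their rows were restored for 25688 probes by matching ranks within each array to those of the processed values. Symbols came from the platform annotation: 23978 probes have 1 and 1719 none.

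Processed values of all 25697 probes were fitted with limma 3.58.1 in R 4.3.3, with a mean for each of 18 groups and the spread pooled over 46 arrays. P-values were adjusted by Benjamini-Hochberg over all probes in each of 9 comparisons (threshold 0.05). The dose slope is per rank of dose, from 0 to 5. Time comparisons weight the 6 doses equally. A lone array is assumed to vary like the other groups. The fit was tested on simulated data. The members and lists were chosen with earlier results of these data known. Genes of the lists are named by rule: up to 6 past the threshold with the smallest p in a comparison. The labels do not say whether testes share an animal, so p-values measure only the spread between these samples. Tables were made with Python 3.11.15 and pandas 2.3.3.

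Alternatives left out the dimmest 40% of probes or each array in turn, used the replicate number as a block, a run of 8 consecutive sample numbers as a term, or quantile-normalized log2 intensities. Leaving out both single arrays at 12 months was added after seeing the data. The number of arrays limits the precision.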

Additional observations from a re-analysis of the deposited data

Results flagged for a closer look

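The dose slope of 3 genes around the cycle differed between times by the test of the difference itself (limma, over all probes). Smox differed by 0.064 ± 0.0185 between 6 months and 1 month (adjusted p = 0.0383), and Oaz2, antizyme 2, by 0.125 ± 0.0359 (adjusted p = 0.0374). Each of these calls was lost without any 1 of 11 arrays, with adjusted p up to 0.117 for Smox and 0.0734 for Oaz2. The other Smox probes lay between 0.0171 and 0.0355 in this difference and did not pass. Fh1 differed by 0.136 ± 0.0269 between 12 months and 1 month (adjusted p = 0.00988), and its call was lost without the first control array at 12 months (adjusted p = 0.0581) and with the run of sample numbers as a term, where the difference itself was 0.211 ± 0.0601 (adjusted p = 1.00). These are 2 of 37 listed genes for the first difference (5.41%, beside 5.19% of all probes) and 1 of 37 for the second (2.70%, beside 1.69%). The first share is near that of the whole array. With the dimmest 40% of probes left out, 1719 and 598 of 15418 were called.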

How the results depend on the processing

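No value of a member or named gene that passed a test changed direction under any alternative run. Counts of called probes moved more. For 10 µg/ml against control at 1 month 0 probes were called, 11 without the dimmest 40% of probes and 3 with the replicate block. With the run of 8 sample numbers as a term, which gave a value for 4 of the 9 comparisons only, 0 were called in the slopes at 1 month and at 12 months and in the difference of those slopes (limma, with 1279, 841 and 925 at an unadjusted p below 0.05). Without the single arrays at 1 and 10 µg/ml for 12 months the slope at 12 months had 6 calls and the difference of slopes between 12 months and 1 month 112, instead of 434.

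Leaving out each array in turn gave 0 to 75 calls for 10 µg/ml at 1 month, 929 to 4790 at 6 months, 296 to 874 for the slope at 1 month, 2832 to 6207 at 6 months, 2 to 176 at 12 months, 1534 to 4553 for 6 months against 1 month, 5873 to 8767 for 12 months against 1 month, 694 to 2263 for the difference of slopes between 6 months and 1 month, and 102 to 1331 between 12 months and 1 month. The highest count came in each without array 3 of 0.001 µg/ml at 1 month.

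For Cps1 the slope at 12 months was 0.187 and 0.134 with the replicate block and 0.270 and 0.208 on quantile-normalized log2 intensities. With the run as a term it was 0.232 and 0.162. In that fit 0 of 25697 probes were called in this slope, so both Cps1 probes lost the call that led to their choice. Without both single arrays the Ass1 difference between 12 months and 1 month was 0.24 (adjusted p = 0.235), and that of Arg2 -0.15 (adjusted p = 0.0393). Whether the replicate numbers pair the arrays is not given by the labels. Deviations of arrays with the same number correlated between -0.408 and 0.437, with a median of 0.00337. For arrays with other numbers the median was -0.00111. The replicate block ended no call of a member. The signal of Otc and Arg1 lies near the floor of the array, which limits what could be seen of them.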
